A study of Mus musculus with 12 samples.

Results

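Proteasome genes were examined for listed regions of the bromodomain proteins BRD2 and BRD3 in RAW264.7 cells, a mouse macrophage line that can form osteoclasts. The genes were chosen by name, as protein-coding mouse genes whose symbols begin with Psma to Psmg followed by a number, which gave 51 of 21887 protein-coding genes on the assembled chromosomes. Chromatin immunoprecipitation and sequencing (ChIP-seq) compared untreated cells with cells given RANKL (50 ng/ml, the cytokine behind osteoclast formation), I-BET (500 nM) or their combination, each for 4 h. The inhibitor I-BET competes for the bromodomains, the pockets with which BRD2 and BRD3 hold acetylated histones. Each antibody and treatment is 1 library with 1 deposited list of regions, so there are 8 lists, no replicates, no test between treatments, and a depth that is unknown. All libraries are from a single cell line, although the labels also name bone marrow as the source. A gene was counted as called when a listed region came within 1 kb of either end of its RefSeq record. A gene without a call is one with no region above the authors' threshold there, which is not the same as a gene without the protein. Of 10 macrophage marker genes, 7 were called in at least 1 list (among them Spi1 and Csf1r), while Adgre1, Itgam and Fcgr1 were called in none. Of 10 markers of lymphoid, endothelial, epithelial and bone-forming cells none was called. Over all protein-coding genes the share was 21.2%.

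The proteasome is the large protease that unfolds and degrades proteins tagged with ubiquitin. Alpha subunits (Psma genes) form the gated outer rings of its core and beta subunits (Psmb genes) the inner rings that hold the cutting sites, while Psmc ATPases and Psmd proteins form the regulatory particle that receives and unfolds substrates. In macrophages, interferon exchanges cutting subunits for those of Psmb8, Psmb9 and Psmb10, the immunoproteasome that makes peptides for class I antigen presentation, and the proteasome also degrades the inhibitors that hold NF-κB in the cytoplasm downstream of RANK.

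Of the 51 proteasome genes, 22 were called in at least 1 of the 8 lists (43.1%, against 21.2% of all protein-coding genes). BRD3 regions were at 13 of them (background 17.4%) and BRD2 regions at 15 (background 8.84%). The 6 in common (background 5.03%) were Psma4, Psmc5, Psmd5, Psmd14, Psme3 and Psmg4. They are 27.3% of the 22 called members, close to the 23.8% of the 4633 called genes of all kinds that were in common. The alpha ring genes stood mainly in the BRD3 lists, where 5 of 8 were called, and 1 of the 8, Psma4, was called for BRD2. Of the beta ring genes 0 of 11 were called for BRD3 and 4 of 11 for BRD2. Both sides of this contrast moved with the processing. In the top 50% of each list by score Psmb5 was the single beta gene left for BRD2, and in lists of equal length likewise. Alpha genes then numbered 2 and 4 for BRD3, in place of 5, and 0 for BRD2 under both settings. Beta genes stayed at 0 for BRD3. By transcript starts 2 alpha genes (Psma4 and Psma6) and 2 beta genes (Psmb4 and Psmb5) were called for BRD2, in a promoter table that does not hold Psmb2 and Psmb7. Of the 6 ATPase genes 2 were called for BRD3 and 3 for BRD2, and of the 14 Psmd genes 3 and 4. Each called gene had 1 region in each list that called it, 57 in all.

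Among the 7 motifs searched in promoters of the proteasome genes, only the NRF1 site was confined to genes called for BRD3. The site of the transcription factor NRF1 (nuclear respiratory factor, not the proteasome regulator Nfe2l1), read as GCGCA, any base and GCGC, was searched on both strands in RefSeq promoters of build GRCm38.p6, from 250 bases before a transcript start to 50 after it. The table held 43 of the 51 genes, and 7 had a match, all of them among the 13 genes called for BRD3. The matches are shown with 10 bases on either side where the window allows, on the strand of the gene, with the match in capitals.
Psmd14, chr2:61711604-61711633, plus strand: caggcggcctGCGCGTGCGCtgtgtgctcc
Psmc4, chr7:28050242-28050271, minus strand: aagagttactGCGCACGCGCaacatccttg
Psma4, chr9:54950788-54950817, plus strand: tcgcagtcctGCGCACGCGCgggagccata
Psmc5, chr11:106256126-106256155, plus strand: tttcgcctccGCGCCTGCGCgatagagtga
Psma3, chr12:70974535-70974564, plus strand: tatggtttctGCGCACGCGCgctctctgct
Psma2, chr13:14613105-14613134, plus strand: ggcccctcttGCGCATGCGCaagggtcaaa
Psmg1, chr16:95990911-95990937, minus strand: gcgggccggcGCGCATGCGCtgtctgg

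At 6 of these 7 genes every called BRD3 region contained the match, and so did every called BRD2 region, 2 at Psmd14 and 1 each at Psma4 and Psmc5. At Psma3 neither of the 2 regions did, since both lay outside the upstream edge of the gene record, over 5 kb from the transcript start in the promoter table. Of the 9 members called for BRD2 alone (background 3.81%) the table held 7, and 0 of these 7 promoters had a match (95% exact interval 0.0% to 41.0%), while of members called in no list it was 0 of 23 (0.0% to 14.8%). The same division ran through all genes: 722 of 2219 promoters of genes called for BRD3 alone held the motif (32.5%), 203 of 903 of those called for both (22.5%), 5 of 689 of those called for BRD2 alone (0.726%) and 224 of 13681 of those called in no list (1.64%). Over all 17492 promoters the share was 6.6%. Base composition also differed between these classes, with a median GC content of 62.3% for BRD3 alone, 60.0% for BRD2 alone and 54.3% for no list, and of 59.0%, 51.7% and 56.7% for the members. Median counts of CpG (C followed by G) were 24, 21 and 9, and 25, 16 and 16 for the members. For genes called for both the medians were 62.0% and 24, and 62.7% and 21.5 for the members. The part of base composition in the motif shares was not tested. A match describes the letters of a window and is not a measured binding site.

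**Figure D1:**
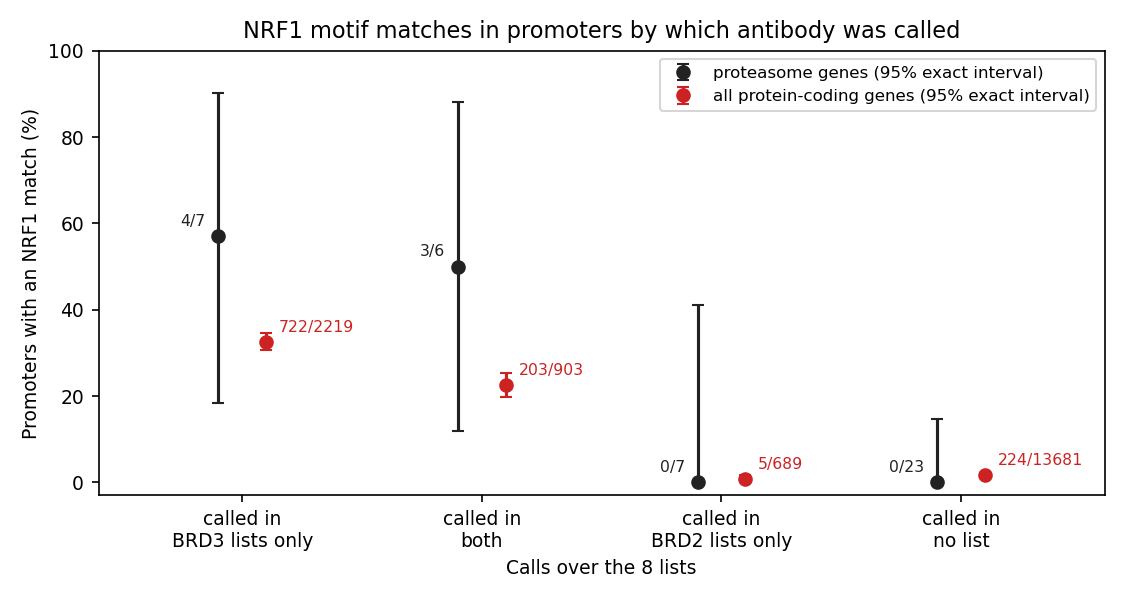
Share of promoters with a match to the NRF1 motif (y axis, percent) for proteasome genes (black) and all protein-coding genes (red), by which antibody called the gene over the 8 lists (x axis). Points are shares with the counts beside them and bars are 95% exact binomial intervals. The 7 proteasome genes with a match are all in the classes called for BRD3.

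None of the other motifs was confined to members called for BRD3. CCGGAAG (ETS core) was in 3 of 13 promoters of members called for BRD3, 4 of 7 called for BRD2 alone and 7 of 23 called in no list, against 11.9% of all promoters. Over all genes of the same 3 classes the shares were 20.5%, 29.0% and 9.08%. The core TGACNNNGC of the antioxidant response element, through which Nfe2l1 acts on proteasome genes, was in 0 of 13, 1 of 7 and 5 of 23, against 13.2%. The class shares of all genes were 16.3%, 12.9% and 12.5%. CCAAT (NF-Y box) was in 5, 3 and 7, against 39.0% (by class 36.6%, 38.0% and 39.6%). GGGCGG (GC box) was in 9, 1 and 13, against 46.3% (by class 67.9%, 57.2% and 40.8%). CACGTG (E-box) was in 2, 0 and 2, against 7.9% (by class 10.9%, 12.3% and 7.0%). GAANNTTC (inverted heat shock unit) was in 0, 1 and 2, against 7.33% (by class 5.61%, 6.68% and 7.76%).

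The 250 bases upstream of the start are shown for Psmd14 and Psmc4, called in all 4 BRD3 lists, and for the beta ring genes Psmb5 and Psmb4, called for BRD2 alone. Capitals mark every match to any of the 7 motifs.
Psmd14, chr2:61711444-61711693, plus strand: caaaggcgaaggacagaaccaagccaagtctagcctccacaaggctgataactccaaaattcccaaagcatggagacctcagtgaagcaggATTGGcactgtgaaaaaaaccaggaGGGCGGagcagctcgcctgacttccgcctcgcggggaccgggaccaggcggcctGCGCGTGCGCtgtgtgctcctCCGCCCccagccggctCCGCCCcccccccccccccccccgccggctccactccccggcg
Psmc4, chr7:28050093-28050342, minus strand: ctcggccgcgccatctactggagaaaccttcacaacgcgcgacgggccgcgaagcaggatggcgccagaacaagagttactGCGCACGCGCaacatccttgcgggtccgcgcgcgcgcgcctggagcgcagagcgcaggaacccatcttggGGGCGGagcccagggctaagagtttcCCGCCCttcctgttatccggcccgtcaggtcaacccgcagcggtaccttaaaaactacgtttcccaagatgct
Psmb5, chr14:54617996-54618245, minus strand: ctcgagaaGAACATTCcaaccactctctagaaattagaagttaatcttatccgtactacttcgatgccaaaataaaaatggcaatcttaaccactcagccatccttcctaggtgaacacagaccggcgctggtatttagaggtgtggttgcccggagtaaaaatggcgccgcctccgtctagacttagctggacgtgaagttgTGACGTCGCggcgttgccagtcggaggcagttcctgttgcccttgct
Psmb4, chr3:94886959-94887208, minus strand: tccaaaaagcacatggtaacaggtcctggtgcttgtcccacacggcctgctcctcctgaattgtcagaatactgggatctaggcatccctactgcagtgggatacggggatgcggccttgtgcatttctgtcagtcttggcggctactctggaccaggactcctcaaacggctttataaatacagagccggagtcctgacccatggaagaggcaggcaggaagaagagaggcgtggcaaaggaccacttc
The Psmd14 and Psmc4 stretches each hold the NRF1 motif with GC boxes, the Psmb5 stretch holds the antioxidant response element core close to the start and no GC box, and the Psmb4 stretch holds none of the 7 motifs.

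By list, BRD3 regions were at 11 of the 51 genes in untreated cells (21.6%, 95% exact interval 11.3% to 35.3%, which covers counting error only), where 14.0% of all protein-coding genes were called. The count was 11 under RANKL (background 13.7%), 5 under I-BET (9.80%, interval 3.26% to 21.4%, background 9.73%) and 8 under RANKL with I-BET (15.7%, 7.02% to 28.6%, background 11.9%). In each BRD3 list the background lay inside the interval of the members. BRD2 regions were at 2 members in untreated cells (3.92%, 0.478% to 13.5%, background 2.26%), 10 under RANKL (19.6%, 9.82% to 33.1%, background 6.21%), 9 under I-BET (17.6%, 8.40% to 30.9%, background 3.79%) and 1 under both agents (1.96%, 0.0496% to 10.4%, background 0.978%). The RANKL and I-BET lists of BRD2 thus held members at a share whose interval lay above that of all genes, a background that includes silent genes. Cut to the 245 highest-scoring regions, the length of the shortest BRD2 list, the RANKL list called 0 members and the I-BET list 2. The backgrounds were then 0.877% and 0.832% of all genes.

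Genes of the cytosolic and mitochondrial ribosome, which growing cells also transcribe steadily, stood at a higher share than the proteasome genes in every list, by counts that were not tested. Cytosolic ribosomal protein genes numbered 30 of 75 in the untreated BRD3 list and 41 of 75 in the RANKL list of BRD2 (54.7%, interval 42.7% to 66.2%, against 9.82% to 33.1% for the members). Mitochondrial ribosomal protein genes numbered 23 of 78 and 18 of 78 in the same lists, with intervals that overlapped those of the members.

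**Figure D2:**
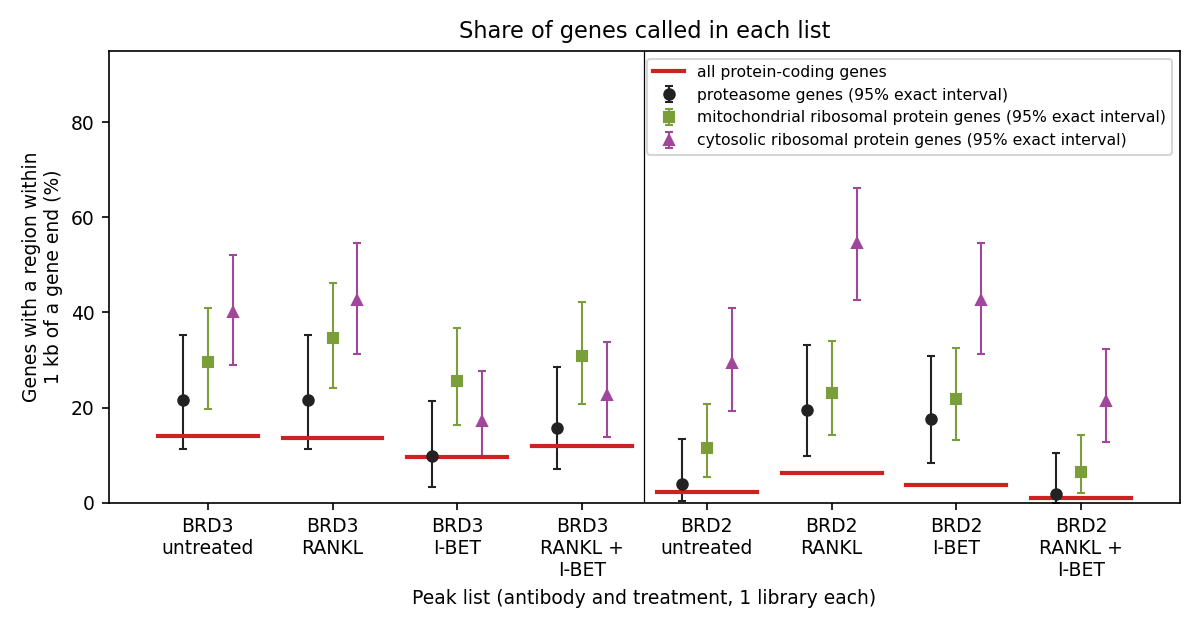
Share of genes with a region within 1 kb of a gene end (y axis, percent) in each of the 8 lists (x axis), for proteasome genes and 2 ribosomal protein groups with 95% exact binomial intervals, and for all protein-coding genes (red lines). Proteasome genes stand at 21.6%, 21.6%, 9.80% and 15.7% in the BRD3 lists and at 3.92%, 19.6%, 17.6% and 1.96% in the BRD2 lists.

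The score of a region is the authors' own value, of unstated scale, and is given here as a percentile within its list (100 is highest). The regions at called members had median percentiles of 49.2, 57.1, 43.9 and 48.8 in the BRD3 lists (untreated, RANKL, I-BET, both), beside 50.3, 49.3, 51.7 and 51.9 for all called genes. In the RANKL and I-BET lists of BRD2 the medians were 41.2 and 39.0, beside 49.8 and 49.0. The 2 members in the untreated BRD2 list had a median of 70.1, beside 45.7, and the single member in the BRD2 list with both agents stood at 89.0, beside 50.6.

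**Figure D3:**
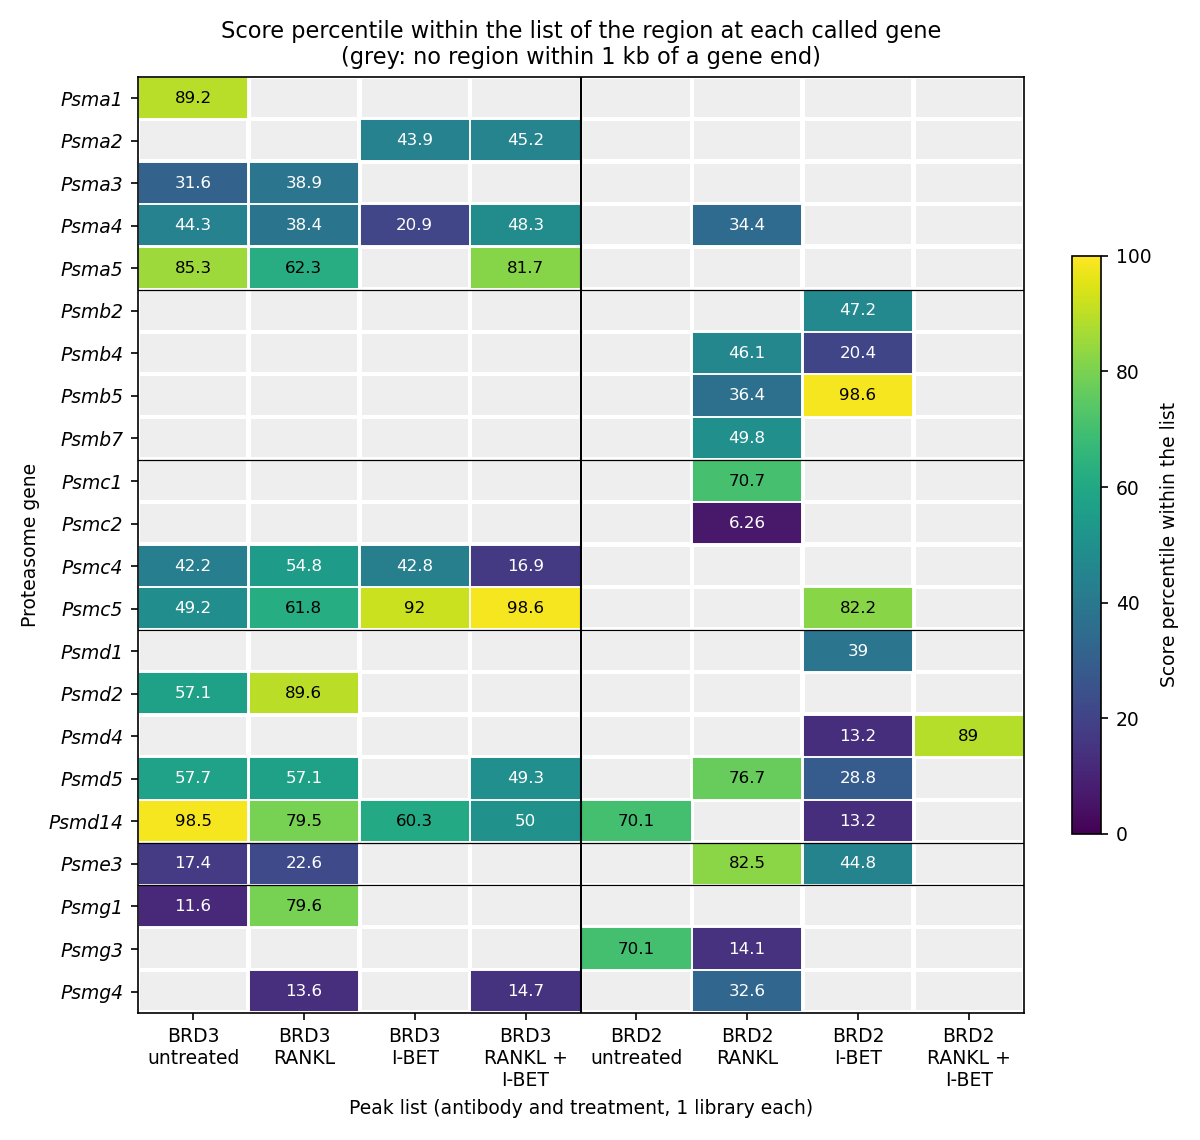
Each of the 22 called proteasome genes (y axis, ordered by role) in each of the 8 lists (x axis). Coloured cells give the score percentile within the list of the region at that gene, and grey cells have no region within 1 kb of a gene end. The beta ring genes Psmb2 to Psmb7 are grey in all BRD3 columns, and Psma4, Psmc4, Psmc5 and Psmd14 are coloured in all 4.

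Among the alpha ring genes, Psma4 was called most often, in all 4 BRD3 lists and in the RANKL list of BRD2. Its BRD3 region spanned 1858 bp in untreated cells, reaching 1305 bp past the transcript start, and 817 bp, 820 bp and 647 bp under RANKL, I-BET and both, all around the start. Psma5 had a BRD3 region in untreated cells (524 bp, percentile 85.3), under RANKL (691 bp, 62.3) and under both agents (477 bp, 81.7), and none under I-BET alone. Psma5 regions lay mostly downstream of the start, with midpoints at 179 to 220 bp inside the gene. Psma1 was called in a single list, BRD3 in untreated cells, although its 396 bp region stood at percentile 89.2. Psma2 had the opposite pattern, with BRD3 regions of 897 bp and 825 bp in the 2 lists with I-BET and none in the other 2. That region also lies over the start of Mrpl32, a mitochondrial ribosomal protein gene that runs the other way from a start 205 bp off, so a region there counts for both genes.

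Psma3 shows how the position of a call matters. Its BRD3 regions in untreated cells (chromosome 12, 70968412 to 70969094) and under RANKL (70968680 to 70969113) lay just outside the start of the gene record. Under RANKL with I-BET a 569 bp region lay instead inside the record at the transcript start of the promoter table (70974621 to 70975189), which is not within 1 kb of a gene end. Psma6 was called in no list by gene ends, yet BRD2 regions of 387 bp, 1086 bp and 878 bp lay inside its record in untreated, RANKL and I-BET cells. The last 2 of these covered a transcript start at position 55398825 of chromosome 12. Psma7 and the germline gene Psma8 had no region within 10 kb.

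Of the beta ring genes, those of the 3 standard cutting subunits are Psmb5, Psmb6 and Psmb7. Psmb5, which encodes the subunit bound by proteasome inhibitor drugs, had a BRD2 region under RANKL (687 bp, percentile 36.4) and under I-BET (624 bp, percentile 98.6, rank 15 of 1067). Psmb7 had one under RANKL (753 bp, percentile 49.8) and Psmb6 none in any list. The structural subunit gene Psmb4 had BRD2 regions under RANKL (617 bp) and I-BET (603 bp), and Psmb2 under I-BET (743 bp). The regions of Psmb4 and Psmb5 were centred near the start, those of Psmb5 at -79 bp and -63 bp. The immunoproteasome genes Psmb8, Psmb9 and Psmb10, the thymus gene Psmb11 and the structural genes Psmb1 and Psmb3 had no call. The nearest region of any list lay 74510 bp from Psmb8, 58345 bp from Psmb9 and 45010 bp from Psmb10.

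Of the ATPase genes, Psmc4 and Psmc5 were called in all 4 BRD3 lists. Psmc4 regions were 532 bp, 661 bp, 679 bp and 585 bp wide in untreated, RANKL, I-BET and both, with midpoints at -123 to -166 bp from the start (negative is upstream). Psmc5 regions were 712 bp, 721 bp, 735 bp and 628 bp wide and stood at percentiles 49.2, 61.8, 92.0 and 98.6, rank 41 of 2842 in the last list. Psmc5 also had a BRD2 region under I-BET (794 bp, percentile 82.2). Its promoter is shared with Ftsj3, a ribosome biogenesis gene on the other strand whose start is 101 bp away. The midpoints of all 5 regions lay -146 to -227 bp from the Psmc5 start, past the Ftsj3 start and so on the Ftsj3 side, although each region also covered the Psmc5 start. Psmc1 and Psmc2 were called for BRD2 under RANKL alone. The Psmc2 region was the widest of the 57, at 2140 bp, and low in its list (percentile 6.26), and it reached across to the chaperone gene Dnajc2, 11 bp from Psmc2. Psmc3 and Psmc6 had no call.

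In the rest of the regulatory particle, Psmd14 was called in 6 lists, more than any other member. It encodes the enzyme that cuts the ubiquitin chain from substrates as they enter. BRD3 regions at Psmd14 were 722 bp in untreated cells (percentile 98.5, rank 54 of 3668), 1134 bp under RANKL (79.5), 550 bp under I-BET (60.3) and 550 bp under both (50.0). BRD2 regions there were 715 bp in untreated cells and 1261 bp under I-BET. Psmd5, a chaperone of regulatory particle assembly, had BRD3 regions of 670 bp, 626 bp and 532 bp in untreated, RANKL and both, and BRD2 regions under RANKL (509 bp) and I-BET (653 bp). The RANKL region of BRD2 at Psmd5 ended at -70 bp from the start, while the other 4 covered it.

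Psmd2, a scaffold subunit gene, had BRD3 regions of 395 bp in untreated cells and 434 bp under RANKL (percentiles 57.1 and 89.6), and none in the lists with I-BET. The other scaffold gene Psmd1 had a BRD2 region under I-BET (478 bp). Psmd4, which encodes a ubiquitin receptor, had BRD2 regions under I-BET (357 bp, percentile 13.2) and under both agents (424 bp, percentile 89.0), the single member in that last list. The remaining 9 Psmd genes (Psmd3, Psmd6 to Psmd13) were called nowhere.

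Of the activator genes Psme3, which encodes the nuclear activator ring, was called in 4 lists, with BRD3 regions of 363 bp and 367 bp in untreated and RANKL cells and BRD2 regions of 637 bp under RANKL and 757 bp under I-BET. The interferon-induced activators Psme1 and Psme2, Psme2b, Psme4 and the inhibitor gene Psmf1 had no call at a gene end. Psmf1 had a 456 bp BRD2 region in untreated cells over a transcript start inside its record. The nearest BRD3 region lay 1852 bp from Psme2 and 3616 bp from Psme1, both in untreated cells.

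Psmg1 to Psmg4 encode the chaperones that pair to build the alpha ring. Psmg1 had BRD3 regions in untreated (460 bp, percentile 11.6) and RANKL cells (450 bp, percentile 79.6). Psmg3 had BRD2 regions in untreated (553 bp) and RANKL cells (613 bp). Its partner Psmg4 had RANKL regions of both proteins (375 bp for BRD3, 340 bp for BRD2) and a BRD3 region under both agents (503 bp). Psmg2 had none. Psmc3ip, a meiotic recombination gene, and Psme3ip1, whose product binds the Psme3 protein, fit the symbol rule without being subunits, and neither was called.

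**Figure D4:**
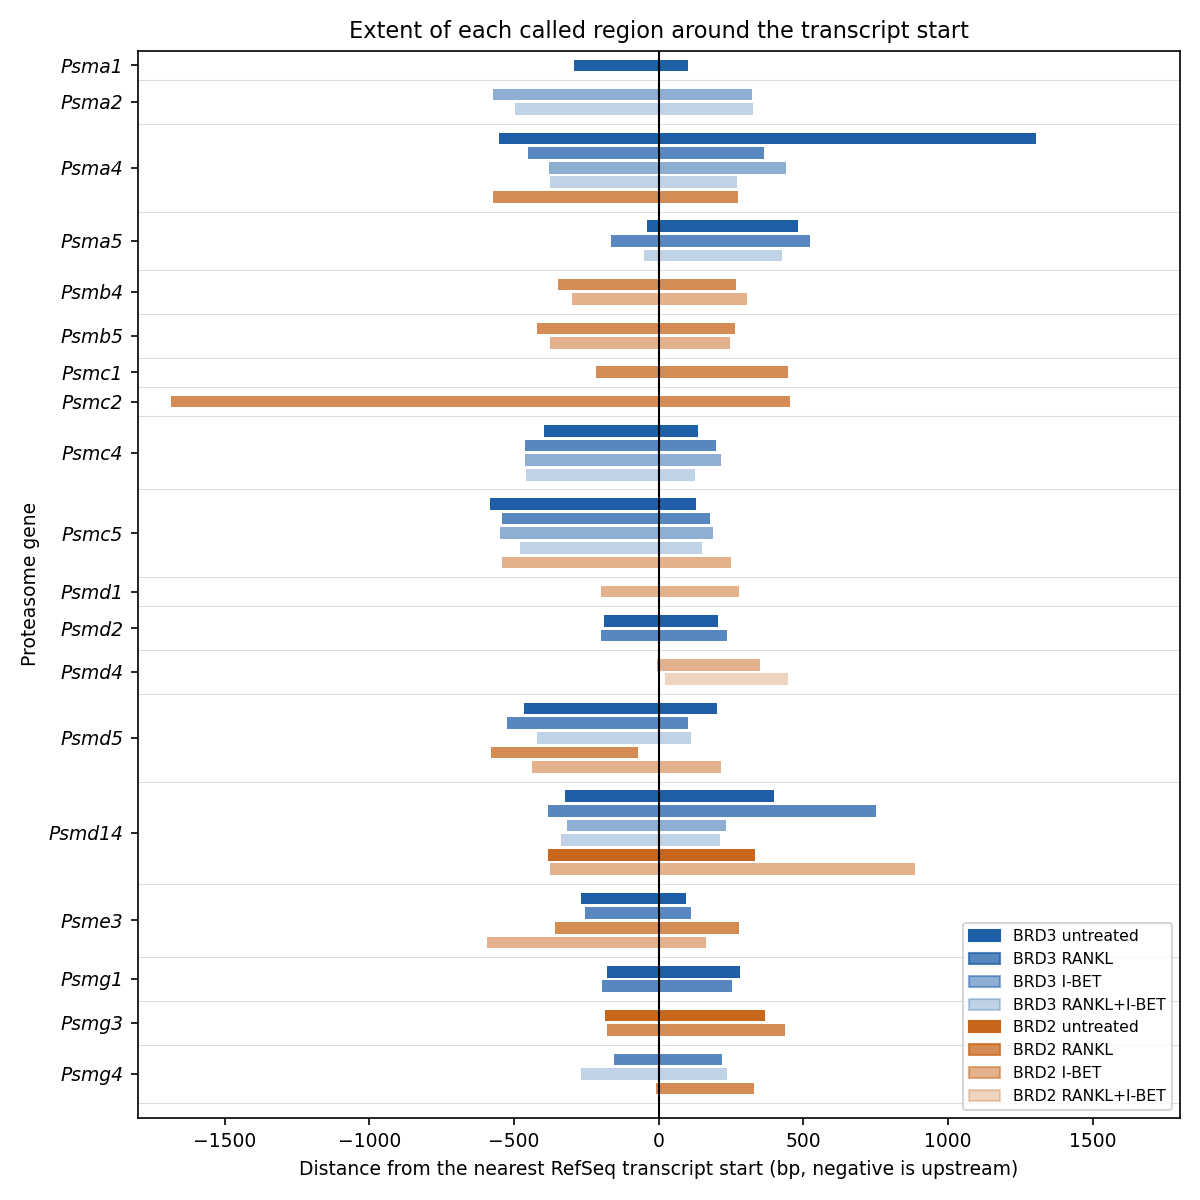
Extent of each region at a called proteasome gene relative to the nearest RefSeq transcript start (x axis, bp, negative is upstream), 1 bar per list, blue for BRD3 and orange for BRD2, paler with treatment as in the key. Psma3, whose regions lie over 5 kb from its start, and Psmb2 and Psmb7, which the promoter table does not hold, are left out. With the Psma3 regions counted, which are not drawn, 51 of 55 regions with a start in the table cover it.

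Regions sat over transcript starts, with 51 of the 55 that could be placed covering the start. In the untreated BRD3 list this held for 10 of 11 called members, beside 84.1% of 2512 called genes of all kinds, and in the RANKL list of BRD2 for 8 of 9, beside 75.7% of 1109. Where a member was called in both lists of a pair of treatments or antibodies, its regions overlapped in every case examined, for example 10 of 10 between untreated and RANKL for BRD3 and 4 of 4 between BRD3 and BRD2 under RANKL. Member regions had a lower median width than regions at gene ends in general in 7 of the lists, which share many of the same members. The medians were 532 bp against 687 bp in untreated BRD3 and 651 bp against 828 bp in RANKL BRD2. They were close in RANKL BRD3 (626 bp against 653.5 bp) and in BRD3 with both agents (567.5 bp against 587 bp). The untreated BRD2 list held 2 member regions and the BRD2 list with both agents 1. In the I-BET list of BRD3 the medians were 735 bp and 652 bp. Of the 22 called members, 5 shared a region with another protein-coding gene: Psma2, Psma4, Psmc2, Psmc5 and Psmg1.

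RANKL against untreated cells asks what the cytokine does to binding within hours. For BRD3 the 2 lists named nearly the same proteasome genes: 10 were in both (background 11.0% of genes), Psma1 was in the untreated list alone (background 3.02%) and Psmg4 in the RANKL list alone (background 2.75%). Of the 11 genes called in untreated cells 10 were called under RANKL (90.9%, interval 58.7% to 99.8%), beside 78.4% of all genes called in untreated cells. For BRD2, Psmg3 was in both lists (background 1.22%), Psmd14 in the untreated list alone (background 1.04%), and 9 genes in the RANKL list alone (background 4.99%): Psma4, Psmb4, Psmb5, Psmb7, Psmc1, Psmc2, Psmd5, Psme3 and Psmg4. The BRD2 lists held 578 and 1716 regions. In lists of equal length by score 2 and 0 members were called (backgrounds 0.85% and 0.877%), so the count of 9 moves with the length of the lists.

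I-BET against untreated cells asks what the inhibitor alone does to binding. For BRD3, 4 members were in both lists (Psma4, Psmc4, Psmc5 and Psmd14, background 8.53%), 7 in the untreated list alone (background 5.47%) and Psma2 in the I-BET list alone (background 1.20%). The 7 were Psma1, Psma3, Psma5, Psmd2, Psmd5, Psme3 and Psmg1. So 63.6% of the 11 members called in untreated cells had no I-BET call, beside 39.1% of the 3065 called genes, and the interval of the share that was kept, 10.9% to 69.2%, includes the 60.9% of all genes. The 7 had untreated score percentiles from 11.6 to 89.2 and the 4 from 42.2 to 98.5, which overlap. In lists of 2232 regions each, 8 members were called in untreated cells (background 8.57%). Of these 8, 4 had no I-BET call (50.0%), beside 36.6% of the 1875 genes called there.

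All 5 members called for BRD3 under I-BET had the NRF1 motif (lower limit of the interval 47.8%). At 3 of these 5, Psma2, Psma4 and Psmc5, the region was shared with another gene (60.0%, beside 35.8% of all genes called there). Of the 7 called in untreated cells and not under I-BET, 2 had the motif, Psma3 and Psmg1 (28.6%, interval 3.67% to 71.0%). At Psma3 the match lay outside both called BRD3 regions. Over all genes the shares were 740 of 1776 (41.7%) for those called under I-BET and 134 of 955 (14.0%) for those called in untreated cells and not under I-BET. The GC box divided the same members in much the same way, in 5 of 5 and 3 of 7, and over all genes it was in 70.0% and 67.1%, while the ETS core was in 0 of 5 and 3 of 7 (20.3% and 20.9% over all genes). These comparisons were chosen after the values were seen. For BRD2, Psmd14 was in the untreated and I-BET lists (background 1.06%), Psmg3 in the untreated list alone (background 1.19%), and 8 in the I-BET list alone (background 2.73%): Psmb2, Psmb4, Psmb5, Psmc5, Psmd1, Psmd4, Psmd5 and Psme3. In lists of 245 regions each, 2 members were called in the untreated list (Psmd14 and Psmg3, background 0.85%). The I-BET list then called 2 (Psmb5 and Psmc5, background 0.832%).

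Of the 11 members called for BRD3 under RANKL, 7 were also called with I-BET added (63.6%, interval 30.8% to 89.1%, beside 76.5% of all genes): Psma4, Psma5, Psmc4, Psmc5, Psmd5, Psmd14 and Psmg4. The 4 without were Psma3, Psmd2, Psme3 and Psmg1 (background 3.23%), and these same 4 were in both BRD3 lists without I-BET and in neither list with it, a pattern of 1.39% of all genes. In lists of equal length Psmd2 was the single member with that pattern (0.681% of all genes), and by transcript starts Psmd2, Psme3 and Psmg1 had it and Psma3 did not. Psma2 was called with both agents and not under RANKL (background 1.37%). For BRD2, 10 members were in the RANKL list alone (background 5.62%), Psmd4 in the list with both agents alone (background 0.379%) and 0 in both (background 0.599%). The list with both agents held 245 regions in place of 1716, and 90.4% of all genes called under RANKL had none. All 5 BRD3 members of the I-BET list were also called with RANKL added (lower limit of the interval of the share kept 47.8%), beside 93.9% of the 2130 genes of that list. Of all genes 9.14% were in both lists, and 0 members were in the I-BET list alone (background 0.594%). Psma5, Psmd5 and Psmg4 were in the BRD3 list with both agents and not in the I-BET list (background 2.73%). By transcript starts Psma3 was as well. For BRD2, Psmd4 was in both of those lists (background 0.585%), 8 members were in the I-BET list alone (background 3.21%) and 0 in the list with both agents alone (background 0.393%).

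Within a treatment, BRD2 and BRD3 shared 1 member in untreated cells (Psmd14, background 1.16%), 4 under RANKL (Psma4, Psmd5, Psme3 and Psmg4, background 2.72%), 2 under I-BET (Psmc5 and Psmd14, background 1.01%) and 0 under both agents (background 0.306%). These 4 are 36.4% of the 11 BRD3 members and 40.0% of the 10 BRD2 members under RANKL, beside 19.8% and 43.8% for all genes called there. BRD2 without BRD3 was listed at 1 member in untreated cells (background 1.10%), 6 under RANKL (background 3.50%), 7 under I-BET (background 2.79%) and 1 under both agents (background 0.672%). BRD3 without BRD2 was listed at 10, 7, 3 and 8 members in the same order (backgrounds 12.8%, 11.0%, 8.73% and 11.6%).

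Genes for ubiquitin enzymes and proteasome-associated proteins outside the symbol rule were called in both sets of lists. Over all protein-coding genes 21.2% were called in some list, 7.65% in all 4 BRD3 lists and 3.81% in BRD2 lists alone. Of 11 ubiquitin activating and conjugating enzyme genes 8 were called in some list. Ube2d2a, Ube2k, Ube2r2 and Ube2s were in all 4 BRD3 lists, Ube2d3, Ube2n and Ube2c in fewer, and Ube2l3 in BRD2 lists alone. Of 9 genes for proteasome-associated proteins 6 were called: Adrm1 and Sem1 (regulatory particle subunits named outside the rule), the deubiquitinase gene Usp14, the ligase gene Ube3c, Txnl1 and Akirin2. Of 12 regulator, shuttle and unfoldase genes 7 were called in some list, and Nfe2l2, Ddi2, Vcp, Ufd1 and Ubqln2 in none. Among those called, the shuttle gene Rad23b was in 6 lists, Nploc4 in 5, Ubqln4 in 4, Ngly1 in 3 and Ubqln1 in 2. Nfe2l1, which encodes the factor that raises proteasome gene transcription, was called in the BRD2 list with both agents alone. Of 10 class I antigen processing genes 3 were called, near the background of 21.2%. The 3 were the chaperone and processing genes Calr, Pdia3 and Erap1, while Tap1, Tap2, Tapbp and B2m were called in none.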

How the data were processed

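ChIP-seq for BRD2 and BRD3 was analysed from 8 deposited lists of regions; 4 input libraries have no list and were not used here. Per the submitters' processing notes, which give no settings, the tools were FastQC, Bowtie2 (version 2.3.4.1) and MACS2 (version 2.1.1.20160309), with build mm10/GRCm38. The deposited score of each region is the authors' own value; per the peak names, regions join peaks of 3 sets, and what these are was not found in the labels. Depth is unknown, and the number of regions moves with depth and enrichment.

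Genes were taken from RefSeq GRCm38.p6. A gene was called when a region touched, by 1 bp or more, the 1 kb on either side of its start or end, so a call can lie at the far end of a gene. Promoters cover 17492 of 21887 genes; the first listed transcript start was used for motifs. Intervals are exact (Clopper-Pearson, 95%) and cover counting error only. Tied scores were cut in file order. Alternatives were 0.5 kb and 2 kb windows, the top 50% by score, lists of equal length, region midpoints, and transcript starts alone. Every member is named with the lists that called it, and pathway genes where called, except a few that are not reported here; Paaf1, of the pathway lists, was not matched. The members and lists were chosen with earlier results of these data known. Calling was tested on simulated regions. Python 3.11.15, pandas 2.3.3 and scipy 1.17.1 were used.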

Additional observations from a re-analysis of the deposited data

How the results depend on the processing

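Of 120 recomputed counts, 94 stayed within 1.5 times the value given and 26 did not. Windows of 0.5 kb and 2 kb and region midpoints moved none beyond that; at 2 kb Psme2 joined the untreated BRD3 list. With transcript starts alone the untreated BRD2 list called 4 members (Psma6 and Psmf1 joined), beside 1.98% of all protein-coding genes.

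In the top 50% by score, BRD3 members numbered 5, 7, 2 and 3 (untreated, RANKL, I-BET, both). The backgrounds were 7.05%, 6.77%, 5.03% and 6.12% of all genes. BRD2 members numbered 3 under RANKL (background 3.13%) and 2 under I-BET (background 1.86%). Members whose BRD3 call differed then numbered 4 for RANKL (background 6.57%) and 5 for I-BET (background 6.85%) against untreated cells. For both against I-BET the number was 1 (background 5.42%). For BRD2 such members numbered 5, 4, 4 (both against RANKL) and 3 (both against I-BET). The backgrounds of these were 3.45%, 2.35%, 3.31% and 2.01%. Both antibodies then shared 1 under RANKL (background 0.653%) and 1 under I-BET (background 0.215%).

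In lists of equal length, members numbered 7 in the RANKL list of BRD3 (background 7.98%). In BRD2 they numbered 0 in the RANKL list (background 0.877%) and 2 in the I-BET list (background 0.832%). Calls that differed numbered 5 for I-BET against untreated in BRD3 (background 7.43%). For RANKL against untreated in BRD3 they numbered 3 (background 6.77%), of which 1 also differed in the full lists. In BRD2 they numbered 2, 4, 1 and 3 in the order above (backgrounds 1.54%, 1.46%, 1.7% and 1.58%). Both antibodies shared 0 under RANKL (background 0.247%) and 1 under I-BET (background 0.265%). The untreated BRD3 count was 8 and that with both agents 6, so the BRD3 lists then stood at 8, 7, 5 and 6. The same lists called 8.57%, 7.98%, 9.73% and 9.54% of all genes. No paired analysis was possible because each group has 1 library and the result comes from no test.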
